A study of Homo sapiens with 6 samples.

Results

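VPS35, CHML, CD68 and CTSS are 4 genes of endosomes and lysosomes, taken by name from the 426 genes that the authors' deposited table lists as changed by VPS35 knockdown. VPS35 is the core of retromer, CHML a Rab escort protein, CD68 a lysosomal glycoprotein and CTSS the lysosomal protease cathepsin S. The samples were MKN28 cells, a human gastric cancer cell line, carrying shVPS35 (short hairpin RNA against VPS35) in 3 samples and a control vector in 3 samples, which the design text calls biological replicates. The sources used here give neither the hairpin's sequence nor whether the shVPS35 samples share a clone, and all 3 belong to 1 knockdown group. RNA was sequenced, and the deposited table gives 1 normalized expression value per gene and sample with 2 decimals, without naming its unit. Levels are therefore compared between groups within a gene. Across genes they serve only for rough ranges, a plot axis and sums per sample. Because only genes that differed between these same 6 samples are listed, a difference in any of the 4 genes is partly a product of selection. The authors' deposited table marks 3 of the 4 as lower in shVPS35, a mark that 1.47% of all tested genes carry, and 1 as higher, a mark that 1.18% carry. Since the genes were taken from that table, nothing can be read from these counts.

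Retromer sits on endosomes and recovers membrane proteins from delivery to lysosomes, sending them to the trans-Golgi network or the plasma membrane. Rab escort proteins present newly made Rab GTPases to the enzyme that attaches their lipid anchors, and those Rabs direct the traffic of endosomes. CD68 lies in the membranes of late endosomes and lysosomes, and is best known as a macrophage marker. Cathepsin S is a cysteine protease of the lysosome that trims the invariant chain of MHC class II in antigen-presenting cells.

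In the shVPS35 samples, VPS35 and CD68 fell, CHML rose, and CTSS showed no separation between the groups in its sample values. VPS35 was left at 20.6% of its vector level and CD68 at 30.5%, whereas CHML stood at 280% of its vector level. CTSS was close to the bottom of the scale in both groups. The plot of values by sample shows the 4 genes side by side.

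**Figure D1:**
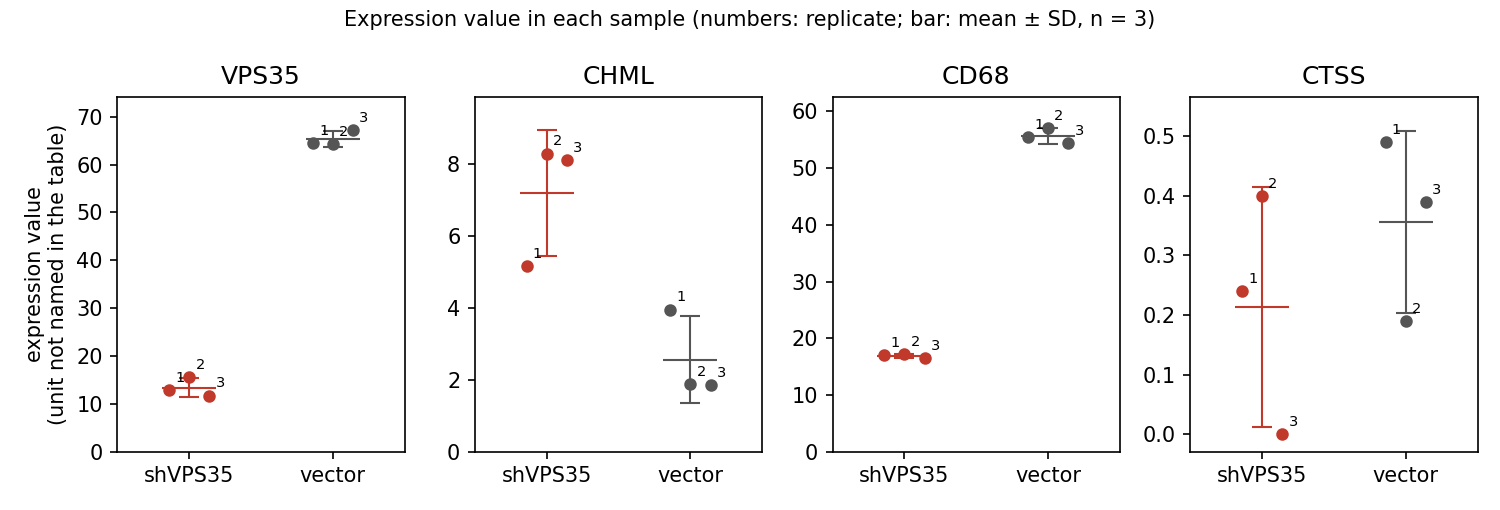
Expression value (unit not named in the table) of VPS35, CHML, CD68 and CTSS in each sample, shVPS35 on the left and vector on the right of each panel, with its own axis per gene. Points are samples with their replicate number, and bars are the mean ± SD of 3 samples. VPS35 and CD68 are lower and CHML is higher in every shVPS35 sample than in any vector sample, while the CTSS values of the groups overlap.

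VPS35 (ENSG00000069329; GRCh38, chromosome 16, 46656132 to 46689518, minus strand) was the target of the hairpin. Its expression value was 12.94, 15.6 and 11.75 in shVPS35 samples 1 to 3, against 64.39, 64.25 and 67.21 in vector samples 1 to 3. The highest shVPS35 sample, sample 2, was still far below the lowest vector sample, and the spread within each group was small beside the gap between the groups. Across all pairs of samples the ratio of shVPS35 to vector ran from 0.175 to 0.243. VPS35 averaged 13.4 ± 1.97 in shVPS35 cells and 65.3 ± 1.67 in vector cells (SD, n = 3 each), and on the log2(value + 1) scale shVPS35 minus vector was -2.21 ± 0.09 (SE; 95% interval -2.43 to -1.99; limma adjusted p = 7.8e-07). Limma called 52.8% of the 426 listed genes lower in shVPS35 at an adjusted p of 0.05, so a call by itself does not set VPS35 apart. By the size of the limma difference VPS35 ranked 8 among the 426. By the log2 ratio of group means, which has no pseudocount, it ranked only 93. The coefficient of variation was 14.7% in shVPS35 and 2.56% in vector samples, against medians of 6.41% and 5.53% over the 80 genes with both group means of at least 5.

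CD68 (ENSG00000129226; chromosome 17, 7579467 to 7582113, plus strand) gave the tightest values of the 4. They were 17.03, 17.25 and 16.53 in the shVPS35 samples and 55.47, 57.01 and 54.36 in the vector samples. No shVPS35 sample came near a vector sample, and the ratio over all pairs stayed between 0.290 and 0.317. CD68 averaged 16.9 ± 0.369 in shVPS35 cells and 55.6 ± 1.33 in vector cells (SD, n = 3 each), with coefficients of variation of 2.18% and 2.39%. On the log2(value + 1) scale shVPS35 minus vector came to -1.66 ± 0.05 (SE; 95% interval -1.77 to -1.55; limma adjusted p = 1.5e-07), and it ranked 33 of 426 by size. By the log2 ratio of group means, without a pseudocount, CD68 ranked 170 of 426. In values summed over all cells of a culture, fewer cells with CD68 and less CD68 RNA per cell cannot be told apart.

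CHML (ENSG00000203668; chromosome 1, 241628853 to 241640254, minus strand) moved the other way with a much wider spread. Its expression value was 5.16, 8.28 and 8.1 in the shVPS35 samples, against 3.95, 1.88 and 1.86 in the vector samples. The groups did not overlap, but sample 1 of each group lay nearest to the other group, and these closest samples differed by a ratio of 1.31. CHML averaged 7.18 ± 1.75 in shVPS35 cells and 2.56 ± 1.20 in vector cells (SD, n = 3 each). The coefficients of variation, 24.4% and 46.9%, compare with medians of 17.6% and 16.4% over the 142 listed genes whose higher group mean was 2 to 10. On the log2(value + 1) scale the mean difference came to 1.22 ± 0.26 (SE; 95% interval 0.62 to 1.83; limma adjusted p = 0.00268), while 43.0% of the listed genes were called higher in shVPS35.

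CTSS (ENSG00000163131; chromosome 1, 150730196 to 150765957, minus strand) had values of 0.24, 0.4 and 0 in the shVPS35 samples and 0.49, 0.19 and 0.39 in the vector samples. Sample 3 of shVPS35 is listed at 0, and shVPS35 sample 2 was above 2 of the 3 vector samples. CTSS averaged 0.213 ± 0.201 in shVPS35 cells and 0.357 ± 0.153 in vector cells (SD, n = 3 each). On the log2(value + 1) scale its difference, -0.17 ± 0.14, did not pass (SE; 95% interval -0.49 to 0.16; limma adjusted p = 0.268). Limma called 408 of the 426 listed genes, or 95.8%, and CTSS was among the few that it did not call. The groups did not overlap in 398 of the 426 genes, or 93.4%, a share that the selection of the table makes high. Overlap was found in 28 genes. Of the 110 listed genes with a higher group mean below 1, 14 overlapped, CTSS among them.

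The exact 2-sided permutation test per gene gave p = 0.1 for VPS35, CHML and CD68, which is the smallest p that 3 against 3 samples allow, and p = 0.5 for CTSS. Among the 4 genes, 3 were called by limma, 2 lower and 1 higher in shVPS35 cells. Limma called 95.8% of the 426 listed genes, so this count says nothing particular about the 4. The plot of differences against mean level places them among all listed genes.

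**Figure D2:**
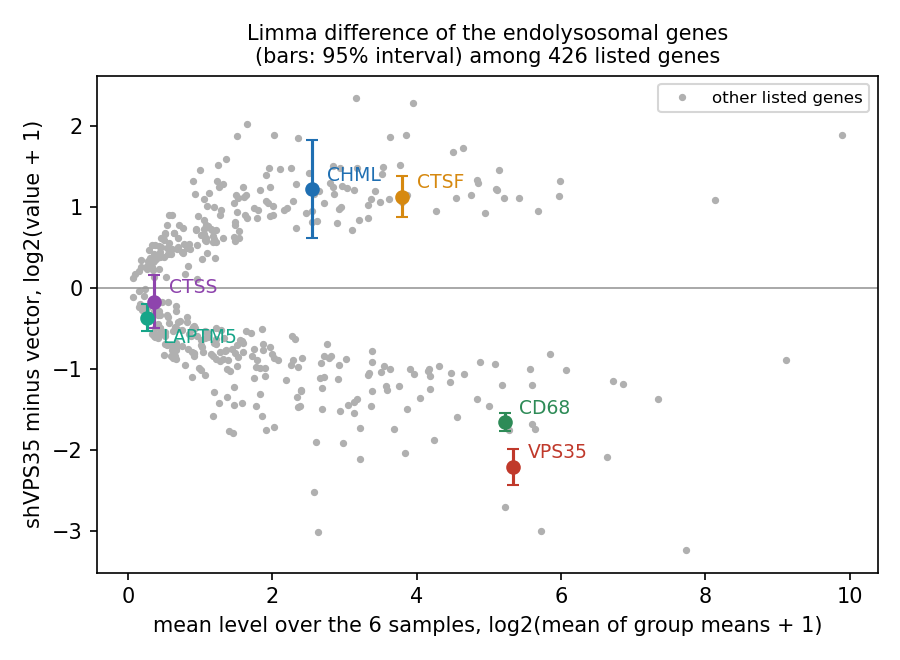
Limma difference of shVPS35 minus vector on the log2(value + 1) scale (vertical axis) against the mean level over the 6 samples on a log2 scale (horizontal axis) for 426 listed genes. Coloured points are the 4 genes and the 2 further listed lysosomal genes CTSF and LAPTM5, with 95% intervals. VPS35 (-2.21) and CD68 (-1.66) have short bars, CHML (1.22) has the longest bar, and the bar of CTSS (-0.17) crosses 0.

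The fold changes that the authors deposited do not all match the sample values beside them. Group means here were computed from the sample values, and the authors' own group columns were not compared. For VPS35 the authors' deposited table puts the log2 fold at -2.38, beside -2.28 for the log2 ratio of its group means. For CD68 it puts the log2 fold at -1.73 (again the authors' deposited table), and the means gave -1.72. The median absolute gap over the 423 genes with both means above 0 was 0.09 on the log2 scale. Over the 151 of them that averaged at least 5 in the higher group it was 0.05. The gap of CD68, -0.02, was below both medians, and that of VPS35, -0.10, was above both and ranked 188 of 423. For CHML the authors' deposited table gives a ratio of 14.1 and a log2 fold of 3.81, whereas its means differ by a ratio of 2.80, or 1.49 on the log2 scale. That gap of 2.33 was the widest among the 423 genes, followed by the -2.04 of the mucin gene MUC19. Gaps above 1 occurred in 13 genes, and among the 151 genes that averaged at least 5 in the higher group CHML was the only one. For CTSS the authors' deposited table has a ratio of 0.194 and a log2 fold of -2.37, whereas the ratio of its means was 0.598, or -0.74 on the log2 scale. With a gap of -1.63 it ranked 6 of 423. The means of CTSS would miss an absolute log2 fold of 1, as those of 48 of the 423 genes would.

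**Figure D3:**
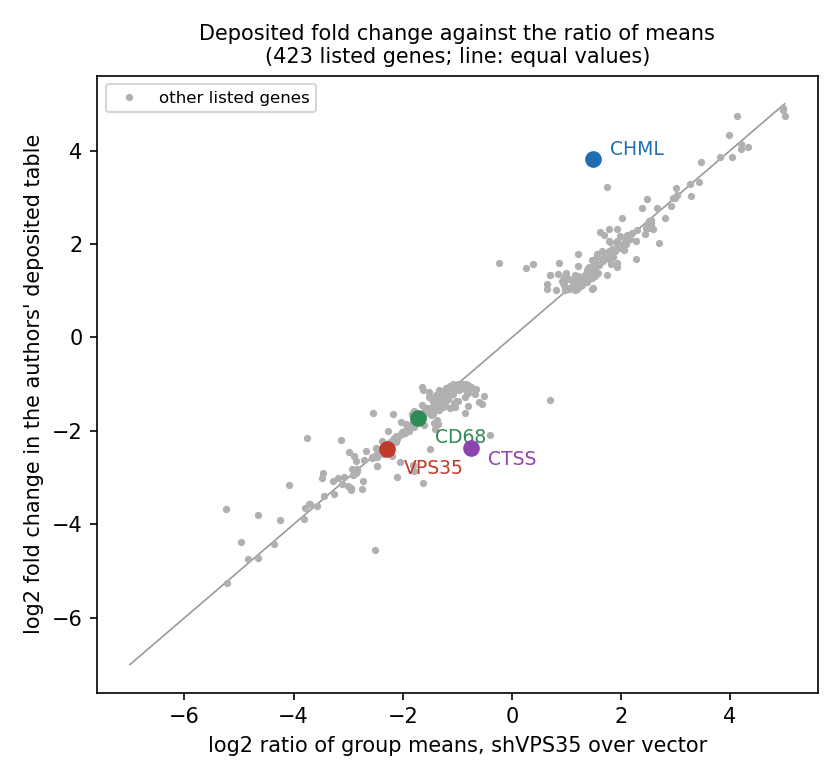
Log2 fold from the authors' deposited table (vertical axis) against the log2 ratio of the group means, shVPS35 over vector (horizontal axis), for the 423 listed genes with both means above 0. The line marks equal values. VPS35 and CD68 lie close to it, CHML lies above it with a gap of 2.33, and CTSS below it with a gap of -1.63.

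The p-values also ordered the 4 genes. The ranks implied by the authors' deposited table fit 16063 genes in the test, of which the 426 listed are 2.65%. VPS35 was 1 of 4 genes to which the authors' deposited table gives a p of 0. CD68 had rank 32, and the authors' deposited table gives it an adjusted p of 8.3e-107. CHML had rank 1455 and CTSS rank 4052, and the adjusted p given by the authors' deposited table was 6.1e-06 for CHML and 0.0401 for CTSS. The largest adjusted p listed was 0.0497, so the limit for listing was taken as 0.05, and CTSS stood close to it.

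Gene models bear on what each value can count, but the annotation behind the deposited values is not known here. GENCODE 29, used below, may hold transcripts that the authors' annotation lacks. Sequence shared with other genes was measured as the share of 50-base windows of a gene's GENCODE 29 transcripts, on either strand, that also occur in a transcript of another gene. Of 2278 distinct windows of CD68, 1782 (78.2%) also occur elsewhere, 1693 of them in AC016876.2, a processed transcript on the same strand (chromosome 17, 7572826 to 7582024) that covers 81.7% of the exonic bases of CD68. A further antisense gene, AC016876.1, overlaps 150 exonic bases at the 3' end. Neither is listed as changed, and whether reads of AC016876.2 contribute to the CD68 values was not tested. Strandedness is not stated, so whether reads within the bases shared by CD68 and AC016876.1 can be separated by strand is not known.

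CHML lies wholly within OPN3, the gene of a non-visual opsin (chromosome 1, 241590102 to 241677376), on the same strand. The genes share 373 exonic bases, 4.87% of those of CHML, and 325 of 7659 windows (4.24%) of CHML occur in OPN3. No window is shared with CHM, the paralog that encodes the other Rab escort protein. The 5 CHML transcripts are very unequal in length, from 371 to 7594 bases. The long one, CHML-201, has 4.37% of its windows in other genes, whereas the 705-base transcripts CHML-203 and CHML-205 have 49.5%. How reads were divided between these transcripts was not tested, and OPN3 is not in the table. CTSS shared 1.34% of its windows with other genes. VPS35 shared 298 of 9931 windows, 252 of them with its pseudogene VPS35P1.

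**Figure D4:**
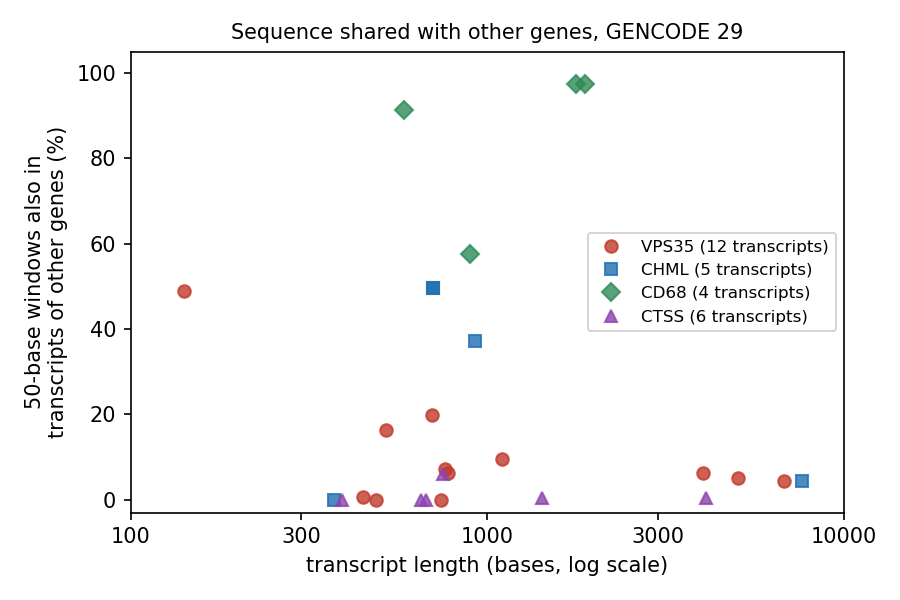
Share of 50-base windows that also occur in transcripts of other genes, in percent (vertical axis), against transcript length in bases on a log scale (horizontal axis), for the GENCODE 29 transcripts of VPS35, CHML, CD68 and CTSS. The longest CD68 transcripts reach 97.4%, the CHML transcripts of 705 bases 49.5%, and the longest transcripts of VPS35, CHML and CTSS stay at 4.42%, 4.37% and 0.419%.

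CTSS had no upstream sequence in the RefSeq set used. Upstream sequences are given for the other 3 members, to show which E-box variants they hold. They are the 250 bases before the RefSeq start on GRCh38.p14, 5′ to 3′ on the gene's strand, with capitals marking CACATG or the longer TCACATGA that contains it, on either strand. These are variants of the E-box CACGTG, which MiT/TFE transcription factors bind at many lysosomal genes within the palindrome TCACGTGA. The windows lie at chr16:46689179-46689428 (minus strand) for VPS35, chr17:7579388-7579637 (plus strand) for CD68 and chr1:241640370-241640619 (minus strand) for CHML. RefSeq and GENCODE 29 do not start these genes at the same base. The whole VPS35 window and most of the CD68 window lie within the GENCODE bounds given above, and the CHML window lies before the GENCODE start of CHML but within OPN3. For CHML, RefSeq gives 2 starts, and the one farther upstream is used.
VPS35: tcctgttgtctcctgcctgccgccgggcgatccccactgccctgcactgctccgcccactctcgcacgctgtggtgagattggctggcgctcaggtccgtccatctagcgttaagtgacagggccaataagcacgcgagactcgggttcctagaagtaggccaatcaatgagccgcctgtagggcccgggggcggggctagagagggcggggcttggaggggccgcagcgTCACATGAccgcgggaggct
CD68: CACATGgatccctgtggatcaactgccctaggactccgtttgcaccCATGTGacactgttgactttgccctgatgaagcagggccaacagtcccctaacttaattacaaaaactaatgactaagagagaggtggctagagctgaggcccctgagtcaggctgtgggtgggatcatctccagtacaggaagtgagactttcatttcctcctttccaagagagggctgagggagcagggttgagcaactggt
CHML: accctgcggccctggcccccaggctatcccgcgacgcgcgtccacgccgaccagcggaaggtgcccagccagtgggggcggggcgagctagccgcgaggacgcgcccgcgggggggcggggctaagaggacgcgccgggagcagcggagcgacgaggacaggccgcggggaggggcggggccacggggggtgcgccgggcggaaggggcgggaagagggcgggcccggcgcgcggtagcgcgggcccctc

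VPS35 has TCACATGA beginning 20 bases before its start, a motif that 0.851% of 35116 such windows hold. CD68 has CACATG beginning 250 and 204 bases before its start, as 9.42% of the windows do at least once. None of the 3 windows holds CACGTG (6.34% of windows) or TCACGTGA (0.854%). Whether any factor binds these windows, or bears on the expression values, was not tested. The CHML window held none of the motifs, was 81.6% G and C, and is identical to a RefSeq window of OPN3, which RefSeq starts at the same base as CHML, whereas GENCODE 29 extends OPN3 further upstream. The corresponding G and C content was 66% for VPS35 and 51.6% for CD68.

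Few other genes of the endolysosomal system were listed. Lists of retromer and its partners, retromer cargoes, Rab prenylation, Rab GTPases, lysosomal membrane proteins, cathepsins and cystatins, lysosomal hydrolases, V-ATPase subunits, endosomal tethers and ESCRT, and MiT/TFE signalling held 268 genes beside the 4. Of these, 2 were listed, which is 0.746%, against 2.65% of all tested genes. Taking out the 4, which are all listed, lowers this share, and the lists were chosen with earlier results of these data known. Nothing can therefore be read from the lower share. With the 4 genes and 16 myeloid markers included, 6 of 288 genes were listed. How many of the 268 were tested is not known, and a gene outside the table was not analysed here. VPS35 was the 1 listed of 23 retromer genes, and none of the 17 retromer cargoes, 60 Rab GTPases, 34 hydrolases or 24 V-ATPase subunits was listed.

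CTSF, the gene of the cysteine protease cathepsin F, rose while CTSS on the same list of 27 did not pass. The values of CTSF were 17.63, 17.21 and 19.5 in the shVPS35 samples and 7.15, 7.02 and 9.1 in the vector samples. All shVPS35 samples were above all vector samples, and the limma difference was 1.13 ± 0.11 (log2 scale, SE; limma adjusted p = 4.2e-05). LAPTM5, a lysosomal membrane protein of blood cells, fell within the same low range as CTSS, with 0.07, 0 and 0.09 in shVPS35 samples and 0.25, 0.4 and 0.43 in vector samples. Its groups did not overlap, and its difference was -0.37 ± 0.07 (SE; limma adjusted p = 0.00194).

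CD68, CTSS and LAPTM5 are all used as genes of macrophages or other blood cells. None of 16 further myeloid markers, PTPRC, CD14, CSF1R and TYROBP among them, was in the table, so their levels were not analysed here and their part in the CD68 fall was not tested. Of 16 gastric epithelial markers 4 were listed, against 2.65% of all tested genes, and the means of all 4 were lower in shVPS35 cells, as for CD68. The markers were chosen with earlier results of these data known, so nothing can be read from this count or the shared direction. PSCA averaged 69.7 in shVPS35 cells and 160.2 in vector cells, and MUC13 7.28 in shVPS35 cells and 15.5 in vector cells. GKN1 averaged 0.81 in shVPS35 cells and 4.42 in vector cells, and GKN2 2.14 in shVPS35 cells and 6.37 in vector cells. Their part in the CD68 result was not tested.

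Likeness to each gene over the 6 samples was measured by Pearson's r on the log2(value + 1) scale, among the 315 other listed genes that averaged at least 1 in the higher group. All these genes were listed for the same contrast, so a high r is common and mainly reflects the 2 groups. The genes most like CD68 were CCND1 (cyclin D1), TGFBI and SERPINE2, with r of 0.9998, 0.9995 and 0.9993, and 101 genes reached 0.95. The genes most like VPS35 were GKN1, RSPO3 and STS, each with r of 0.999, and 99 genes reached 0.95. For CHML the highest r were 0.967 for AL390856.1, 0.966 for LINC02593 and 0.958 for CAMK2D, and only 5 genes reached 0.95.

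Within the shVPS35 group, sample 2 had the highest value of all 4 genes, whether they rose or fell. Its values over all listed genes also summed highest, to 5004 against 4853 and 4696 in shVPS35 samples 1 and 3, while the vector samples summed to 5130, 5078 and 5029. With each sample centred on its median listed gene, the differences were -2.19 for VPS35, -1.64 for CD68, 1.24 for CHML and -0.15 for CTSS, in the same directions. The centring shifted them little and used genes selected as changed between the groups. It therefore could not test the directions of VPS35, CD68 and CHML.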

How the data were processed

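Total RNA was extracted with TRIzol and treated with DNase I, per the labels' protocols. The submitters' processing notes name fastp, HISAT, RSEM and GRCh38.p13. Their versions and roles, and strandedness, are not stated there. The authors' deposited table gives an expression signal per gene and sample (unit not named), a ratio (fold change), a log2 fold change, a p-value and an adjusted p-value, per the file headers, and the test behind them is not stated. It also has a column named for each group, which was not used here. It holds only genes called changed. Depth is unknown, and precision rests on 3 samples a group.

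Differences were tested on log2(value + 1) with limma 3.58.1 (trend and robust, statmod 1.5.0, R 4.3.3) over all 426 listed genes with Benjamini-Hochberg adjustment and group as the only term. No filter was used, because one would drop CTSS. These p-values are not independent of the selection of the table. The number of tested genes is the one for which 387 of 422 adjusted p-values had a whole-number rank within 0.01. Python 3.11.15 with pandas 2.3.3 and scipy 1.17.1 did the rest. Positions and transcripts come from GENCODE 29 (GRCh38), upstream sequences from RefSeq on GRCh38.p14, and 3 of the 4 genes were matched there. The text names the 4 genes, listed genes of the lists, overlapping genes, the paralog CHM and the 3 genes most like VPS35, CHML and CD68. MUC19 was named after its values were seen. Members and lists were chosen with earlier results of these data known. Alternatives were pseudocounts of 0.1 and 5, filters of 1 and 5 in at least 3 samples, median centring, limma without trend and robust, a replicate block and leaving out each sample.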

Additional observations from a re-analysis of the deposited data

How the results depend on the processing

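VPS35, CD68 and CHML kept their direction and stayed below an adjusted p of 0.05 under every alternative run, and CTSS kept its direction and stayed above it. CTSS has no value with a filter, since no sample reached 1. Leaving out each sample in turn gave limma log2 differences of -2.31 to -2.12 for VPS35, -1.67 to -1.64 for CD68, 1.09 to 1.49 for CHML and -0.28 to -0.04 for CTSS. The lowest CTSS adjusted p was 0.0875, without shVPS35 sample 2. Sizes depend on the pseudocount most for low values: with 0.1 and with 5, CHML had 1.51 and 0.69, and CTSS -0.77 and -0.04. With a filter of 5 in at least 3 samples, 78 of 141 genes were called lower and 62 higher, against 225 and 183 of 426 without one, because fewer genes entered the test.

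Replicate numbers are shared between the groups. Deviations of same-numbered samples from their group means correlated at -0.01, -0.04 and 0.03 across the 426 genes, and 1 of 3 shVPS35 samples correlated best with its own number. With the replicate block the counts were 222 lower and 183 higher, and CHML had a difference of 1.22 with an adjusted p of 0.0113.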
